A study of Mus musculus with 2 samples.

Results

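Genes for mitochondrial ribosomal proteins were examined in haematopoietic stem cells (HSC) of mouse bone marrow. The members were the genes whose annotated symbol is Mrpl or Mrps followed by a number and, in some, a letter from a to c, taken from probe sets annotated to a single gene. This gave 74 of the 12393 genes on the array, 47 named Mrpl and 27 named Mrps, which together had 127 probe sets. Mrpl30 and Mrpl53 lay only on probe sets annotated to more than 1 gene and were not entered.

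The 2 samples were primitive HSC and maturing HSC, both sorted by flow cytometry from bone marrow after a short culture and left untreated, with 1 Affymetrix array each. Neither the strain nor the age or sorted surface phenotype is stated in the labels. cDNA primed on poly(A) tails was amplified, size fractionated and cloned in phage, and the cloned inserts were transcribed into the labelled cRNA, so each array reports the makeup of a cloned library. With 1 array per population there was no replicate and so no test of any difference, and every value given describes these libraries.

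Mitochondria have ribosomes of their own, which translate the few proteins encoded in mitochondrial DNA, all of them subunits of the respiratory chain complexes or of ATP synthase. All protein subunits of these ribosomes are encoded in the nucleus, made in the cytosol and imported. Most are named Mrpl for the large (39S) or Mrps for the small (28S) subunit, but structures place Mrps18a and Mrps30 in the large subunit, and some ribosomal proteins have other names. Many have a counterpart in the bacterial ribosome, and the others are found only in mitochondrial ribosomes. HSC at rest are known for relying on glycolysis more than on respiration.

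Both ends of the range of ratios were held by Mrps18 genes, paralogs related to bacterial ribosomal protein S18. For that reason the 250 bases before the annotated start of each are shown here, from RefSeq on build GRCm38.p6, 5′ to 3′ on the strand of the gene. Capitals mark matches to 3 motifs of promoters of housekeeping and mitochondrial genes, chosen for this description and searched on both strands, CGCANGCG for NRF1, CCGGAAG for ETS factors and AAGATGGC for YY1. No match overlapped a match of another motif in these windows.
Mrps18a, chr17:46110754-46111003, plus strand: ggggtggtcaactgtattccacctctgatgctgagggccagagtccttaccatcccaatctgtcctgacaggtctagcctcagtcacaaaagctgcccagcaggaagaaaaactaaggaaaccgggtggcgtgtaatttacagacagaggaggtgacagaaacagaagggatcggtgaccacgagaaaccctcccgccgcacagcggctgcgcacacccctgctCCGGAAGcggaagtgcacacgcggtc
Mrps18b, chr17:35916441-35916690, minus strand: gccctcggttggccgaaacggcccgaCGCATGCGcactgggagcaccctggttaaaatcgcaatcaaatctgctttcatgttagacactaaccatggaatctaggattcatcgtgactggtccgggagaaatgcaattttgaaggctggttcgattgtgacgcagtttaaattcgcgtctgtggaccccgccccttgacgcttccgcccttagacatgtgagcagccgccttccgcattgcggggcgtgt
Mrps18c, chr5:100798509-100798758, plus strand: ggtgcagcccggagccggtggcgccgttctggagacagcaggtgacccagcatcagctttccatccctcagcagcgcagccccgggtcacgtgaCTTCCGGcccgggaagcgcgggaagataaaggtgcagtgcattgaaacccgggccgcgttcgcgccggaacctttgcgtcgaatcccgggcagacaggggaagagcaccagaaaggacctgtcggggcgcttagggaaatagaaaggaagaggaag

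Signals are MAS5 intensities, rescaled so that both arrays had the same 2% trimmed mean. Signals under 441.05 were set to that value, called the floor here, which is the median signal of both arrays together without control probe sets. A ratio is the log2 of the primitive signal divided by the maturing signal, so it is positive where primitive HSC were higher. Where 1 of the signals was at the floor the ratio is a bound, and where both were the gene counts as not measured. Each gene is represented by its probe set with the highest mean signal, and signals of different probe sets are not comparable as transcript amounts. Fewer cells of a kind and less RNA per cell cannot be told apart on such arrays.

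The labelled cell type was checked against markers. Of 7 stem and progenitor markers found, all were measured, and Kit, Cd34, Procr, Slamf1 and Gata2 were above the floor on both arrays, while Meis1 was at the floor in primitive HSC and Abcg2 in maturing HSC. Kit (-0.41), Cd34 (-0.91) and Meis1 (a bound of -1.44) were lower in primitive HSC, and the other 4 were higher. The summed signal of the 7 was 23783 in primitive HSC and 17640 in maturing HSC. Of 4 T and natural killer cell markers, Ccl5, Cd3d and Klrd1 had primitive signals at least 4-fold the maturing ones, and Cd3e was under the floor on both arrays, with a summed signal of 48664 in primitive HSC and 2050.0 in maturing HSC. The summed signal of 6 neutrophil and monocyte markers was 89513 in primitive HSC and 45328 in maturing HSC, although Mpo and Csf3r were at the floor in primitive HSC. The summed signals of macrophage, B cell, erythroid and megakaryocyte markers were between 926 and 5301 in primitive HSC and between 1447 and 5356 in maturing HSC. The part of such cells in the ratios of mitochondrial ribosomal genes was not tested.

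Mrps18a read 9000.1 in primitive HSC and 676 in maturing HSC, a log2 ratio of 3.73 or 13.3-fold, the largest ratio of any member. Mrps18c went the other way, with 62.8 in primitive HSC and 3806 in maturing HSC, so it was at least 8.63-fold lower in primitive HSC. Mrps18b was close to level, with 4133 in primitive HSC and 4798 in maturing HSC and a log2 ratio of -0.22. Each of the 3 had 1 probe set, and so none of these ratios has a second reading on the array. In structures of the mammalian ribosome, Mrps18a sits in the large subunit (as mL66), while Mrps18b and Mrps18c sit in the small subunit. All 3 promoters held an ETS match, at -26 for Mrps18a, at 44 for Mrps18b (past the start and so not printed) and at -156 for Mrps18c, counted from the start to the first base of the match. An NRF1 match lay at -224 in Mrps18b, and a YY1 match lay at 12 in Mrps18a, also past the start.

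Taken over the whole family, 48 of the 72 measured members had a higher signal in primitive HSC, where 52.7% of the 8852 measured genes did. The median log2 ratio of the members was 0.55 (quartiles -0.31 and 1.04), against 0.07 (quartiles -0.67 and 0.69) over all measured genes. Of the measured members, 59 exceeded the floor in both populations, 7 were at the floor in primitive HSC and 6 in maturing HSC, and the 13 bounds had to lie away from 0. Over the 59 alone, 42 were higher in primitive HSC and the median was 0.62, against 0.09 for the 5525 genes of that kind. Mrpl49 and Mrps24 were under the floor on both arrays. Primitive signals of measured members ran from 57.4 to 20784 with a median of 1946, and maturing signals from 109 to 14185 with a median of 1417. These directions hold relative to the average gene: scaled to the 9 hybridisation control probe sets, whose own median log2 ratio was 1.19, the members' median was -0.63 and that of all genes -0.90.

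**Figure D1:**
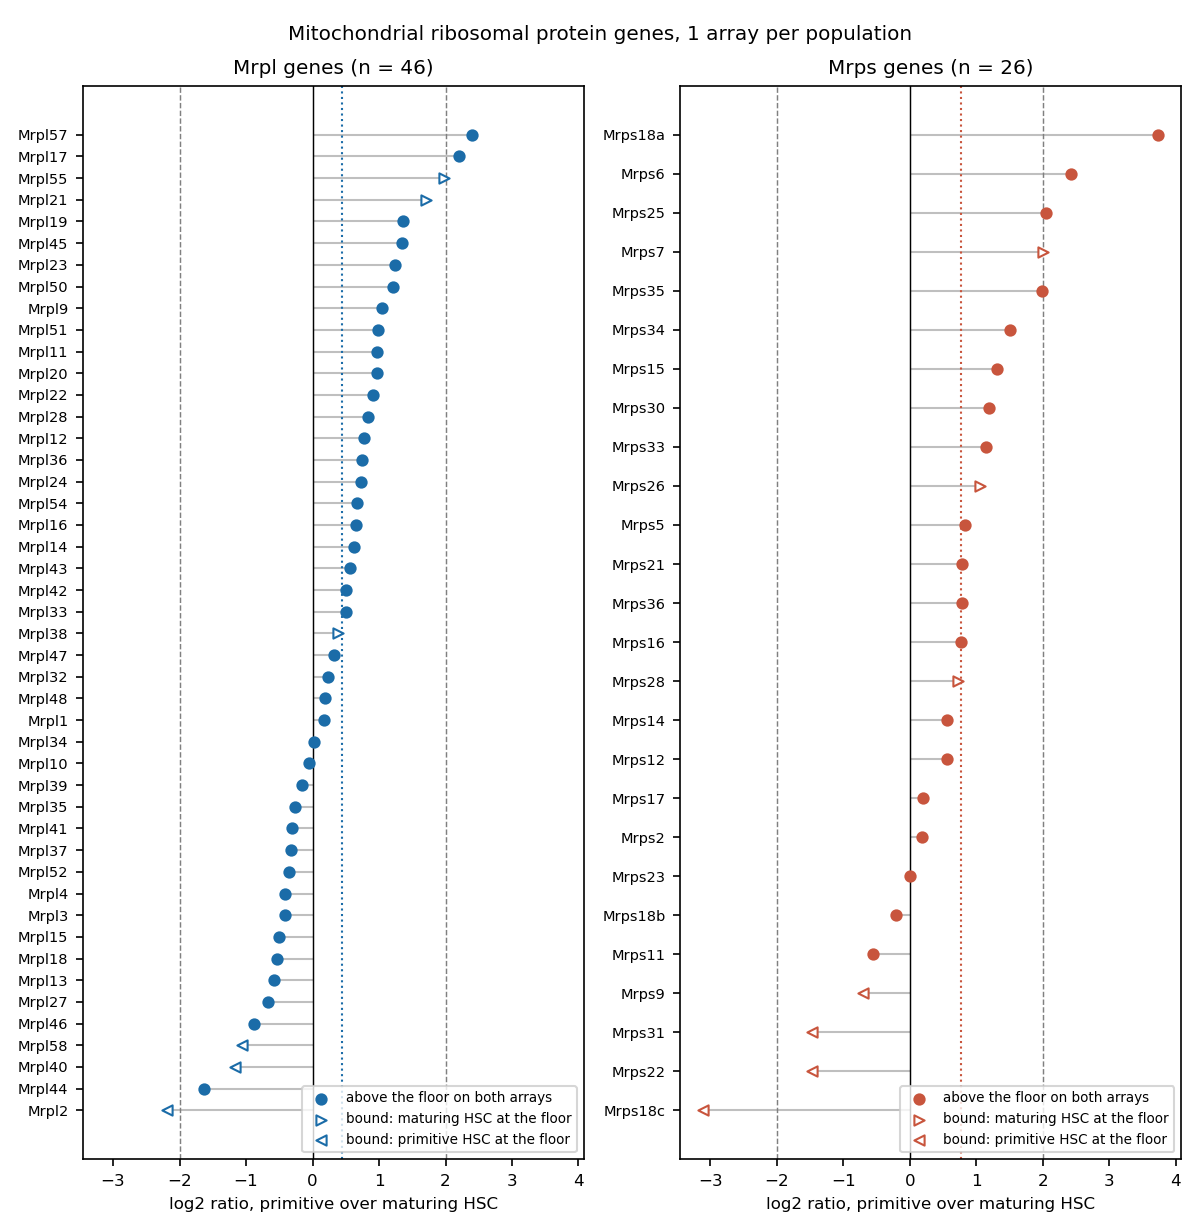
Log2 ratio of primitive over maturing HSC (x axis) for each of the 46 measured Mrpl genes (left, blue) and 26 measured Mrps genes (right, red), ordered by ratio. Filled circles are genes above the floor on both arrays, open triangles are bounds, dashed lines mark 4-fold and the dotted line is the median of the panel, 0.44 for Mrpl and 0.77 for Mrps. Mrps18a at 3.73 and Mrps18c at -3.11 are the ends of the family.

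Changes of at least 4-fold were few in number, with a share above that of all genes toward primitive HSC and below it toward maturing HSC. At least 4-fold higher in primitive HSC were 6 of the 72 members, Mrps18a, Mrps6, Mrpl57, Mrpl17, Mrps25 and Mrps7, where 3.45% of all measured genes passed. At least 4-fold lower were 2, Mrps18c and Mrpl2, where 4.69% of all measured genes passed. At 2-fold, 19 members were higher, where 15.6% of all genes passed, and 7 were lower, where 17.6% of all genes passed. The family therefore held more 2-fold differences toward primitive HSC than toward maturing HSC, while all genes were near balance.

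**Figure D2:**
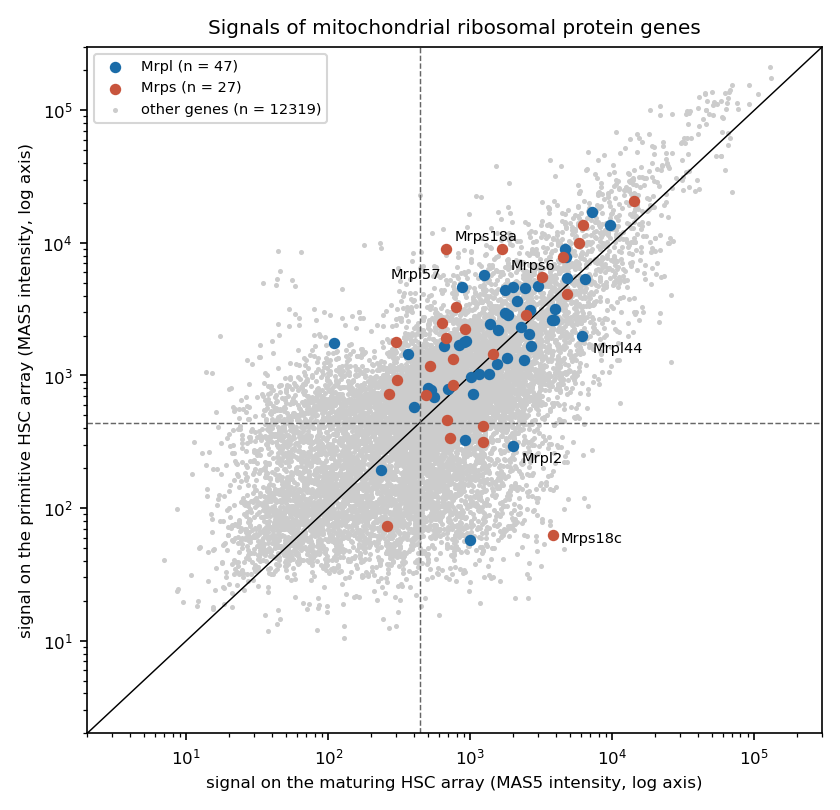
Signal of each gene on the primitive array (y axis) against the maturing array (x axis), in MAS5 intensity on log axes, with the 47 Mrpl genes in blue, the 27 Mrps genes in red and the other genes in grey. The solid line marks equal signal and the dashed lines the floor of 441.05. Most members lie above the line of equal signal, and Mrps18c lies far below it at 62.8 on the primitive and 3806 on the maturing array.

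Mrpl and Mrps genes both had positive medians. Of 46 measured Mrpl genes, 29 were higher in primitive HSC, and the median log2 ratio was 0.44 (quartiles -0.34 and 0.95). Of 26 measured Mrps genes, 19 were higher in primitive HSC, and the median was 0.77 (quartiles 0.04 and 1.28). The medians differed by -0.33 (Mrpl minus Mrps), and the ratios ran from -2.18 to 2.40 in Mrpl and from -3.11 to 3.73 in Mrps genes. Genes are not replicates, so this difference was not tested. It was -0.25 with Mrps18a and Mrps30 counted in the large subunit, and the other 24 Mrps genes set against them, and -0.23 with Mrps36 left out as well.

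Mrpl57 had the highest ratio of the Mrpl genes. It is a small mitochondria-specific protein, and it read 4611 in primitive HSC and 871 in maturing HSC, a log2 ratio of 2.40. Its second probe set gave -0.50, so the readings of this gene disagree in direction. Mrpl17, the counterpart of bacterial L17, read 5716 in primitive HSC and 1246 in maturing HSC, a log2 ratio of 2.20, and its second probe set gave 0.99. For Mrpl17 both readings thus pointed to primitive HSC.

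Mrpl55 stood at 1744 in primitive HSC and 109 in maturing HSC, at least 3.96-fold higher in primitive HSC. Mrpl21, the counterpart of bacterial L21, read 1444 in primitive HSC and 364 in maturing HSC, at least 3.27-fold higher, but its other probe set gave a bound of -1.27. Mrpl19 (1.35), Mrpl45 (1.34) and Mrpl23 (1.24) followed. The same direction came from both measured probe sets of Mrpl19, while Mrpl45 and Mrpl23 had 1 probe set each.

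At the other end of the Mrpl genes, Mrpl2, the counterpart of bacterial L2 near the peptidyl transferase centre, read 294 in primitive HSC and 2005 in maturing HSC, at least 4.55-fold lower in primitive HSC. Mrpl44, which carries a ribonuclease III-like fold, read 1979 in primitive HSC and 6136 in maturing HSC, a log2 ratio of -1.63. All 3 probe sets of Mrpl44 were lower in primitive HSC, from -1.63 to -1.25, the last of these a bound. Mrpl40 was at least 2.25-fold lower in primitive HSC, and Mrpl58, a peptidyl-tRNA hydrolase built into the ribosome, at least 2.09-fold lower. Mrpl46 stood at -0.87 and Mrpl27 at -0.68.

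Among Mrps genes other than Mrps18a, Mrps6, the counterpart of bacterial S6, read 9039 in primitive HSC and 1681 in maturing HSC, a log2 ratio of 2.43. Mrps25 read 3265 in primitive HSC and 789.9 in maturing HSC, a ratio of 2.05, and its remaining probe sets were under the floor. Mrps7, which binds the ribosomal RNA of the head, read 1775 in primitive HSC and 302 in maturing HSC, at least 4.02-fold higher in primitive HSC. Mrps35 stood at 1.99, Mrps34 at 1.50, Mrps33 at 1.14 and Mrps30, a protein of the large subunit in structures, at 1.20. Every gene in this group apart from Mrps25 had 1 probe set.

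Of the 7 Mrps genes lower in primitive HSC, 4 were bounds. Mrps22, a mitochondria-specific protein whose human gene is mutated in a respiratory chain disorder, read 314 in primitive HSC and 1223 in maturing HSC, at least 2.77-fold lower in primitive HSC. Mrps31 read 417 in primitive HSC and 1222 in maturing HSC, also at least 2.77-fold lower. Mrps9 was at least 1.63-fold lower in primitive HSC and Mrps11 stood at -0.55. Mrps36, which despite its name is known as a component of the 2-oxoglutarate dehydrogenase complex and not of the ribosome, stood at 0.78.

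The 3 Mrps and 3 Mrpl genes with the highest mean signals are given next. Mrps14 read 20784 in primitive HSC and 14185 in maturing HSC, a ratio of 0.55, though its second probe set gave -1.65, with 836 in primitive HSC and 2632 in maturing HSC. Mrps33 read 13713 in primitive HSC and 6231 in maturing HSC, and Mrps16 9898 in primitive HSC and 5833 in maturing HSC, a ratio of 0.76. Among Mrpl genes, Mrpl23 read 16954 in primitive HSC and 7182 in maturing HSC, a ratio of 1.24. Mrpl42 read 13571 in primitive HSC and 9592 in maturing HSC (0.50), and Mrpl20 9059 in primitive HSC and 4637 in maturing HSC (0.97). All 6 were higher in primitive HSC, with ratios from 0.50 to 1.24, but intensity-dependent scaling brought Mrps14 to 0.016 (quantile) and -0.0065 (lowess) and Mrpl42 to 0.15 (quantile) and 0.08 (lowess). Scaled to the hybridisation controls, Mrpl23 alone of the 6 was above 0, at 0.05.

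The members were also grouped by whether they were classed as having a bacterial counterpart, with Mrps18a, Mrps18b and Mrps30 among the mitochondria-specific Mrps genes. Mrps18a and Mrps18b were counted there although the Mrps18 genes are related to bacterial S18. Mrpl genes with a bacterial counterpart had a median log2 ratio of 0.62 (20 of 29 higher in primitive HSC) and mitochondria-specific Mrpl genes 0.19 (9 of 17). Mrps genes with a bacterial counterpart had a median of 0.64 (11 of 14 higher) and mitochondria-specific Mrps genes 1.14 (7 of 11). The median was thus higher for genes with a counterpart in Mrpl and lower in Mrps, while their share of genes higher in primitive HSC was the larger in both. Across both subunits the medians were 0.62 for 43 genes with a counterpart and 0.44 for 28 mitochondria-specific genes.

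Groups by place in the ribosome were made after the values had been seen and are only a description. The 6 genes chosen for the polypeptide exit of the large subunit were all higher in primitive HSC. These were Mrpl17, Mrpl22, Mrpl23, Mrpl24, Mrpl45 and Mrpl47, with ratios from 0.32 to 2.20 and a median of 1.07. Of 6 genes chosen for the central protuberance, the crown of the large subunit, 4 were lower in primitive HSC and the median was -0.71. These 4 were Mrpl18, Mrpl46, Mrpl40 (a bound) and Mrpl58 (a bound). Mrpl48 (0.19) and Mrpl38 (a bound of 0.38) were the members of that group on the other side. The choice was not complete, as Mrpl27 (-0.68), Mrpl52 (-0.35), Mrpl55 (a bound of 1.98) and Gadd45gip1 (a bound of 1.55) were left out. The median of the group thus depends on which genes were chosen. In the stalk that recruits translation factors, Mrpl11 stood at 0.97, Mrpl12 at 0.77 and Mrpl10 at -0.06. Of the genes chosen for the head of the small subunit, 4 of 6 measured were higher in primitive HSC. Their ratios ran from a bound of -1.47 for Mrps31 to a bound of 2.01 for Mrps7. This choice was not complete either, as Dap3 (-0.60), also of the head, was left out, so the count depends on the choice.

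Where a member had several probe sets, they often disagreed. Of 24 members with more than 1 measured probe set, all readings went the same way in 13 (54.2%), close to the 55.6% found for all 2764 such genes. In 7 members the readings lay on both sides of 0 and more than 1 apart: Mrpl3, Mrpl15, Mrpl21, Mrpl28, Mrpl57, Mrps14 and Mrps23. The 4 measured probe sets of Mrpl15, the counterpart of bacterial L15, ran from -0.69 to 1.21, and those of Mrpl28 from -0.59 to 0.83. With the median signal of its 7 probe sets taken on each array separately, Mrpl15 stood at 0.87, against -0.51 on the probe set used. These medians, 1886 in primitive HSC and 1028 in maturing HSC, came from different probe sets, so 0.87 is not the reading of any probe set. Mrpl3, at -0.41, had a second reading of 0.71, and Mrps23, at -0.0017, one of 1.05. Over 1318 genes, probe sets of the same gene had an SD of 0.82 in log2 ratio. Of the 31 measured member probe sets that were not used to represent their gene, 19 (61.3%) were higher in primitive HSC, against 42.0% of 4112 such probe sets over all genes.

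**Figure D3:**
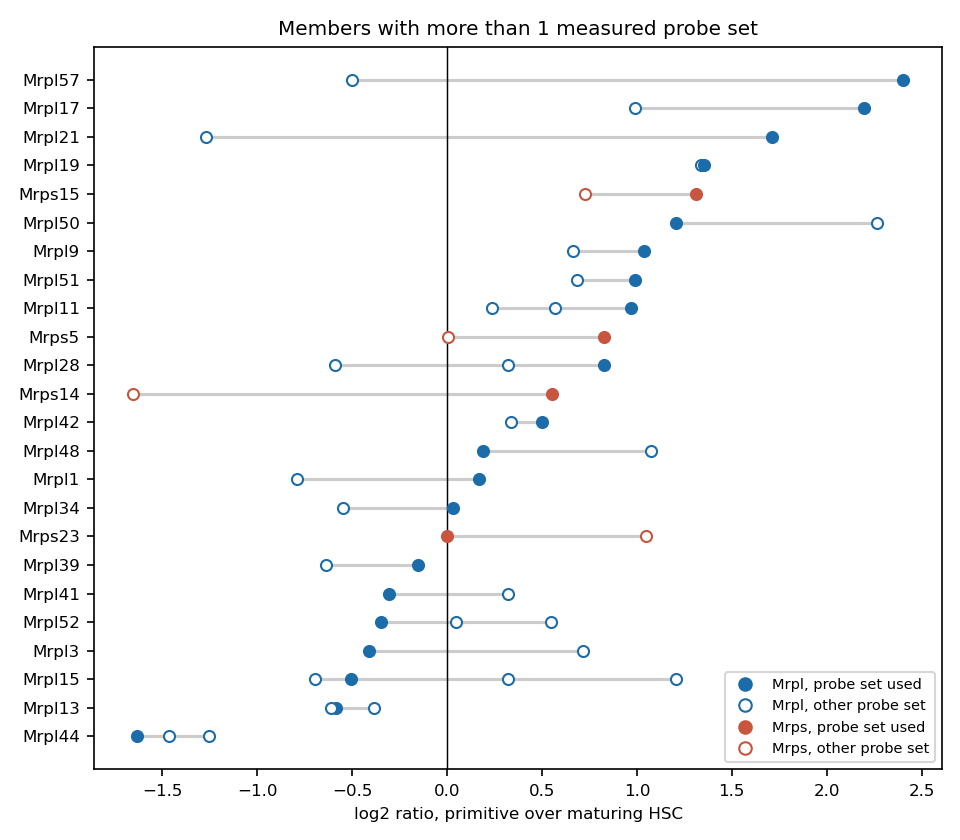
Log2 ratio of primitive over maturing HSC (x axis) of every measured probe set of the 24 members with more than 1, ordered by the probe set used (filled), with the other probe sets open and a grey line over their range. Mrpl44, Mrpl13 and Mrpl19 have tight readings on 1 side of 0, while Mrpl57 and Mrpl21 span it.

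The members were also split by signal. Among measured members in the highest tertile of mean signal over all genes, 31 of 44 were higher in primitive HSC and the median was 0.69, against 51.4% and 0.06 for all 2951 genes of that tertile. In the middle tertile 12 of 19 were higher with a median of 0.56, against 50.7% and 0.02 for all 2950 genes. In the lowest tertile 5 of 9 were higher with a median of 0.32, against 55.9% and 0.08 for all 2951 genes. In that tertile the median was -0.37 for 4 Mrpl genes and 0.55 for 5 Mrps genes. Across members the ratio went weakly with signal (r = 0.22, rho = 0.22, n = 72) and hardly with genomic span (r = -0.01, rho = -0.09), where all points share the same 2 libraries. Members with a span of at most the median of 7690.5 bases had a median ratio of 0.61, and longer ones 0.50. The order differed between the groups, with 0.66 for shorter and 0.19 for longer Mrpl genes, and 0.55 for shorter and 0.78 for longer Mrps genes.

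The family was next set beside the most closely related groups. Genes for cytosolic ribosomal proteins had a median log2 ratio of 1.07, and 39 of the 43 measured were higher in primitive HSC. Of 32 measured genes for respiratory complex I, which holds products of mitochondrial translation, 27 were higher, and the median was 1.01. Mitochondrial ribosomal genes had the lower median and the larger share of genes lower in primitive HSC, 24 of 72, against 4 of 43 cytosolic ribosomal genes and 5 of 32 complex I genes. The groups differ in brightness, with a median mean signal of 1874 for mitochondrial ribosomal genes, 64978 for cytosolic ribosomal genes and 7458 for complex I genes, and the part of brightness in these differences was not tested.

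**Figure D4:**
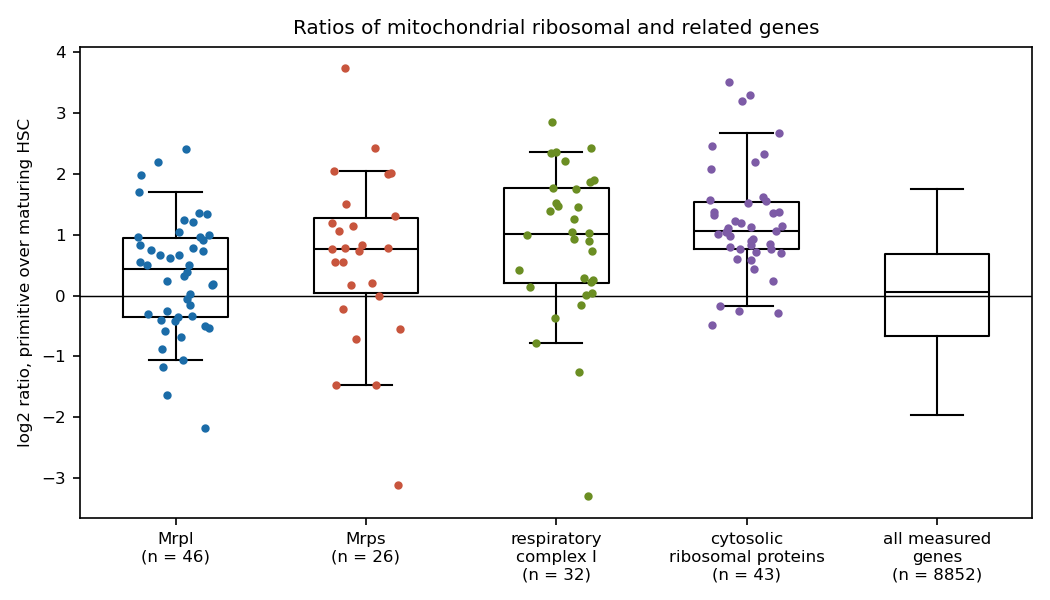
Log2 ratio of primitive over maturing HSC (y axis) for measured genes of the Mrpl, Mrps, respiratory complex I and cytosolic ribosomal protein groups and for all measured genes, bounds included. Boxes show quartiles and median, whiskers the percentiles 5 and 95, and points single genes (not drawn for all genes). The medians are 0.44, 0.77, 1.01, 1.07 and 0.07 from left to right.

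Genes that serve the mitochondrial ribosome were described by lists, whose median log2 ratios lay below that of the ribosomal proteins. Their median mean signals were also lower than the 1874 of the members. They were 584 for translation factors, 1030 for assembly, 1169 for transcription and 758 for ribosomal proteins with other symbols. The part of brightness in these lower ratios was not tested. Several genes named from these lists have more than 1 probe set, among them Tufm, Mettl17 and Ssbp1 with 3 each and Dhx30 with 4. For each, only the probe set with the highest mean signal is given, without a second reading. Of the genes listed, 6 of 12 translation factors, 17 of 24 assembly genes, 11 of 14 transcription genes and 4 of 7 ribosomal proteins with other symbols were on the array. Of 5 measured mitochondrial translation factors, 1 was higher in primitive HSC and 4 were lower, for a median log2 ratio of -0.64. Tufm, the elongation factor that brings aminoacyl-tRNA to the ribosome, read 174 in primitive HSC and 986 in maturing HSC, at least 2.24-fold lower in primitive HSC. Mrrf, the recycling factor, was at least 1.82-fold lower, the formyltransferase gene Mtfmt stood at -0.64 and the elongation factor genes Gfm2 and Gfm1 at -0.04 and 0.50.

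Among 13 measured genes of mitoribosome assembly, 6 were higher in primitive HSC and 7 lower, with a median of -0.0032. The range was wide. Mettl17 read 3654 in primitive HSC and 325 in maturing HSC, at least 8.28-fold higher, and Tfb1m, which methylates the small-subunit RNA, was at least 5.52-fold higher. Afg3l2, a subunit of the protease that matures Mrpl32, stood at 1.50. Nsun4, a methyltransferase of the ribosomal RNA, read 299.8 in primitive HSC and 2048 in maturing HSC, at least 4.64-fold lower, and the RNA helicase gene Dhx30 was at least 4.39-fold lower. Ngrn was at least 1.41-fold lower.

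Of 9 measured genes of mitochondrial transcription, DNA copying and mRNA handling, 3 were higher in primitive HSC and 6 lower, with a median of -0.58. Ssbp1, the single-strand binding protein of mitochondrial DNA, read 82.2 in primitive HSC and 3223 in maturing HSC, at least 7.31-fold lower. Tfam, which packages mitochondrial DNA and starts its transcription, was at least 4.30-fold lower, with a primitive signal of 440.0 just under the floor, and Tfb2m stood at -1.74. Polrmt, the mitochondrial RNA polymerase, went the other way at 1.79, with a bound of 0.66 for the elongation factor gene Tefm and 0.62 for Slirp.

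Proteins of the mitochondrial ribosome named otherwise were split. Chchd1 read 8619 in primitive HSC and 3764 in maturing HSC, a ratio of 1.20, and Gadd45gip1 exceeded its maturing signal at least 2.93-fold in primitive HSC. Dap3, a GTP-binding protein of the small-subunit head, stood at -0.60, and Ptcd3 was at least 2.43-fold lower in primitive HSC.

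Promoter motifs, which the choice by name did not use, were each found in a minority of members, and no enrichment was tested. RefSeq gave 71 promoter windows, from 250 bases before to 50 after the start, for 65 of the 74 members. The ETS motif was found in 33.8% of these windows, against 14.0% of 12566 windows of genes on the array and 8.86% of all 32851 windows. The NRF1 motif was found in 25.4% of member windows, against 13.7% on the array and 8.21% of all windows, and the YY1 motif in 15.5%, against 3.60% on the array and 2.75% of all windows. Median GC content was 58.7% in members and 59.0% in genes on the array.

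Members with and without each motif overlapped in ratio, and no difference was tested. The 17 measured members with an NRF1 match had a median log2 ratio of 0.77 and the 46 without one 0.50. With an ETS match the median was 0.52 (24 members) and without one 0.62 (39), and with a YY1 match it was 0.50 (9) and without one 0.59 (54). Mrpl45 held the most NRF1 matches, 3, and 2 of them lie in the 250 bases before its start, shown in capitals as an example of the motif.
Mrpl45, chr11:97315466-97315715, plus strand: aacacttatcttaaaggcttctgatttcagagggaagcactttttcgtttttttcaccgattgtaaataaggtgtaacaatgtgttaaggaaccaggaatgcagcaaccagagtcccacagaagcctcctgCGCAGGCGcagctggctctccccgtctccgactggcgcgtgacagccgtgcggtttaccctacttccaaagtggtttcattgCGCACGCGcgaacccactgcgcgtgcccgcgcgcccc

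**Figure D5:**
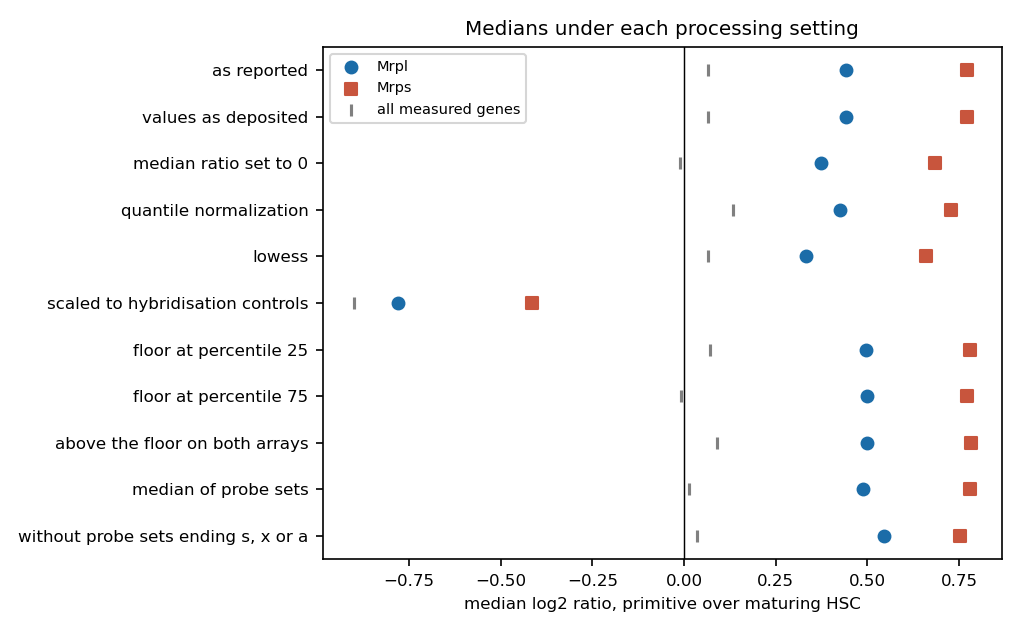
Median log2 ratio of primitive over maturing HSC (x axis) for Mrpl genes (blue circles), Mrps genes (red squares) and all measured genes (grey bars) under the reported setting and 10 alternatives (y axis). Both medians lie right of that of all genes in each setting, and only scaling to the hybridisation controls puts them below 0, at -0.78 and -0.41.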

How the data were processed

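Each deposited value is a probe set's intensity, linear and not logged. The submitters' processing notes name MAS5 without a version. The deposited intensities had 2% trimmed means of 1000.6 in primitive and 1000.4 in maturing HSC. Of 22690 probe sets, 64 were controls and 20380 had a single symbol in the platform annotation. RefSeq identifiers matched 20351, and 0 symbols changed.

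Ratios, floor and choice of probe set are described with the results. Members and lists were chosen with earlier results of these data known. Genes named were members past 4-fold, the 6 largest and 6 smallest ratios and 3 highest signals of Mrpl and of Mrps, the Mrps18 paralogs, Mrps30, Mrps36 and members with opposed probe sets, and up to 3 at each end of the other lists. Genes named in the groups by place in the ribosome were added after their values had been seen. The number of arrays limits the precision. The steps were tested on simulated data. Scripts ran in Python 3.11.15 with pandas 2.3.3 and numpy 2.4.6, trimmed means came from scipy 1.17.1, lowess from statsmodels 0.14.6 and plots from matplotlib 3.10.9.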

Additional observations from a re-analysis of the deposited data

How the results depend on the processing

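Directions of the medians were kept under 9 of 10 alternatives (values as deposited, median ratio set to 0, quantile normalization, lowess, floors at percentiles 25 and 75, only genes measured on both arrays, the median of probe sets, and leaving out probe sets ending in s, x or a), where the members' median ran from 0.47 to 0.63. Scaling to the hybridisation controls turned the medians negative, to -0.63 for all members, -0.78 for Mrpl and -0.41 for Mrps genes, and left 1 member at least 4-fold higher and 6 at least 4-fold lower in primitive HSC. All genes moved with it, to a median of -0.90. The Mrpl minus Mrps difference kept its sign throughout, from -0.36 to -0.21. The count at least 4-fold higher was 3 with the median of probe sets, and the count at least 4-fold lower was 0 with the floor at percentile 75 and 0 without bounds, since both of its genes are bounds. At 2-fold the counts were 19 and 7, and at 8-fold 1 and 1. For the 36 members named by rule (the others were not followed), 292 ratios moved by less than the SD between probe sets, and 26 of the other 41 came from scaling to the controls. Part of the 292 could not have moved further. Genes measured on both arrays (26 ratios) kept the same values, and the values as deposited (36) were all but the reported ones. Setting the median ratio to 0 (36) shifted ratios by far less than that SD. These settings, also among the 9 alternatives, are thus no check of single ratios. Signs changed under lowess for Mrps14 (-0.0065) and Mrps23 (0.11) and under quantile normalization for Mrps23 (0.19). With the median of probe sets they changed for Mrpl15 (0.87, from signals of different probe sets), Mrpl3 (0.71) and Mrps23 (0.44). Scaling to the controls changed the sign of 8 of the 36. The subunits by structure without Mrps36, an alternative chosen after seeing the data, differed by -0.23. No paired analysis was possible because each population had 1 array. Leaving out an array leaves no comparison.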

Other observations

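Some mitochondrial ribosomal genes lie head to head with another gene, on opposite strands with starts at most 1000 bases apart. This held for 24 of the 65 members with a RefSeq promoter (36.9%), against 16.6% of 9887 genes on the array. Mrpl46 and Mrps11, a gene of each subunit, are such neighbours on chromosome 7, and both were lower in primitive HSC. Mrpl46 read 1311 in primitive HSC and 2403 in maturing HSC, a ratio of -0.87, and Mrps11 464 in primitive HSC and 679.9 in maturing HSC, a ratio of -0.55. The 41 bases between their starts, shown because both genes are read outward from them, hold no match to the 3 motifs (build GRCm38.p6, plus strand, the strand of Mrps11).
Mrpl46 and Mrps11, chr7:78783090-78783130: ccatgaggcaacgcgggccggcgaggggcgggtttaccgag

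Among the 11 members whose head-to-head partner was also measured, 7 had a ratio of the same sign as the partner, Mrpl46 and Mrps11 being counted from both sides. No such share was computed for pairs over all genes, so the count is not read as a trait of these members. Mrpl47 stood at 0.32 and its neighbour Ndufb5, a complex I gene, at 2.43. Mrpl18 stood at -0.54 and the chaperonin gene Tcp1 at -1.93, and Mrpl32 at 0.23 and the proteasome gene Psma2 at 0.70. In the other direction, Mrpl40 had a bound of -1.17 while the histone chaperone gene Hira had a bound of 1.78. Mrpl49 was under the floor on both arrays, beside the cytosolic ribosomal gene Fau at 2.32. These genes were named after their values had been seen.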
